A study of Mus musculus with 12 samples.

Results

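Fatty acid oxidation and the tricarboxylic acid (TCA) cycle were followed through 33 genes in whole mouse lung. The genes were taken by symbol from the value table: the carnitine shuttle, the enzymes of mitochondrial beta-oxidation, the electron transfer flavoproteins, the TCA cycle enzymes, and the regulators Ppara and Ppargc1a. Of these, 32 were measured among 24704 genes, 1 probe set each, and Cpt1b was not analysed here. The study has 12 Affymetrix arrays in 4 groups of 3, and all mice carried floxed Nfat5 alleles. Control mice (Nfat5fl/fl) were given the solvent miglyol, and knockout mice (Nfat5(EC)-/-) were given 1 mg tamoxifen a day for 5 days to delete Nfat5 in endothelial cells, at an age of 10 to 12 weeks and with males and females used. The drug was given to knockouts only, so drug and deletion cannot be told apart, and the sources used here name no Cre line for the endothelial restriction. After 2 to 3 weeks of recovery mice of both genotypes either stayed in normoxia or spent 21 days in hypoxia, and lungs were perfused before RNA was extracted. The arrays are control normoxia 1, 2 and 4, control hypoxia 1, 2 and 4, knockout normoxia 1, 2 and 4, and knockout hypoxia 2, 3 and 4. The submitters describe 4 mice per group and state that preparations with contaminating tissue or with a poor hypoxia response were dropped, so the hypoxia comparisons rest on animals selected partly on the outcome.

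Mitochondria burn fatty acids by attaching them to carnitine for import, cutting them into acetyl-CoA in repeated rounds of beta-oxidation, and feeding the acetyl-CoA into the TCA cycle. Electrons from the first step of each round reach the respiratory chain through the electron transfer flavoproteins. PPAR-alpha (Ppara) is a fatty acid receptor that switches on many of these genes, and PGC-1alpha (Ppargc1a) is a coactivator that drives mitochondrial biogenesis together with the estrogen-related receptors. The pathway runs at a high rate in heart and brown fat, tissues that lie next to the lung in the chest, and in lung it is used by alveolar type 2 cells and by endothelium. Ucp1, the uncoupling protein that makes heat in brown fat, marks brown fat, and Nppa, the atrial natriuretic peptide, marks the heart's atria.

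The promoters of the 3 members that passed the test with hypoxia in control lungs, and of Acadm, are shown because the regulators of this pathway act through short DNA motifs. Each is the 250 bases before the start site, from RefSeq on GRCm38.p6, read 5′ to 3′ on the gene's strand. Ppargc1a is chr5:51567726-51567975 (minus strand), Cpt2 is chr4:107923590-107923839 (minus), Suclg1 is chr6:73248255-73248504 (plus) and Acadm is chr3:153944644-153944893 (minus). Capitals mark ACGTG in Ppargc1a, CCGGAAG and GGGCGG in Cpt2 and AAGGTCA in Acadm, in either orientation.
Ppargc1a: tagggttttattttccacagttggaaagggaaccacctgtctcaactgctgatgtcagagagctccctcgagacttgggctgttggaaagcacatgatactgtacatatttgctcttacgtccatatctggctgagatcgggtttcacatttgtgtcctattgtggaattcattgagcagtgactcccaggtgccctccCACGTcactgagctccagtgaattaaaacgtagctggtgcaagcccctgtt
Cpt2: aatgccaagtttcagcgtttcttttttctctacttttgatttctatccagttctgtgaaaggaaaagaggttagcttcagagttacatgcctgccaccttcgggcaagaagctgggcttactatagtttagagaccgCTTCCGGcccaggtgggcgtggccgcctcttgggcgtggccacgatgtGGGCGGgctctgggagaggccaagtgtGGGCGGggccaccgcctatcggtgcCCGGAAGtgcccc
Suclg1: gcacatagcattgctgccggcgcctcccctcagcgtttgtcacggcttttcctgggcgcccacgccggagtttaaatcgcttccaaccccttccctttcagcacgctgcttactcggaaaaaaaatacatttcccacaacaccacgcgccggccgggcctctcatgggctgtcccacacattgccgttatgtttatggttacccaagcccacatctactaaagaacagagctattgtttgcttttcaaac
Acadm: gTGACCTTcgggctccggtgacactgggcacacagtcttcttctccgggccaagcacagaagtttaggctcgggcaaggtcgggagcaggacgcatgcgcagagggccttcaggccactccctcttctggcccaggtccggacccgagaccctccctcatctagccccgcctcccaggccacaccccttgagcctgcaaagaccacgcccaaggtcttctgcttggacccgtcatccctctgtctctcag

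Both strands of the 250 bases were searched for 7 motifs in the 29 members and 27025 genes with a window. The half-site of the estrogen-related receptors, AAGGTCA, was found in 1 member, Acadm, and in 4.7% of all promoters. The PPAR direct repeat, AGGTCANAGGTCA, was in 0 members and 0.0407% of promoters. The core of the hypoxia-inducible factors, ACGTG, was in 4 members (Acadvl, Ppargc1a, Idh3g and Ogdh; 13.8%) and 18.5% of promoters. The cAMP response element, TGACGTCA, was in Ogdh and Mdh2, against 1.77% of promoters. The NRF1 site, GCGCATGCGC, was in Etfdh and Ppara, against 0.877%, and the ETS/GABP core, CCGGAAG, was in 3 members (Cpt2, Slc25a20 and Idh3g), against 7.83%. The GC box, GGGCGG, was in 19 members (65.5%) and 35.4% of promoters. In Suclg1 none of the 7 was found. A match describes letters in this window and not a site that is used.

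Lung identity and the other tissues in the samples were read from marker lists, as mean log2 expression per array. Alveolar type 2 markers (8 genes) were at 11.7 to 11.9 and capillary endothelial markers (9 genes) at 9.66 to 10.4 in all 12 arrays, while skeletal muscle (8 genes) stayed at 3.78 to 4.09 and thymocyte markers (6 genes) at 3.69 to 3.92, below the array median of 4.55. Of the lung's cell types, 4 of 8 ciliated cell markers fell with hypoxia in control lungs, beside 6.14% of all genes. In knockouts 0 passed, beside 0.502% of all genes lower. In both genotypes 7 of the 8 were below 0, with medians of -0.33 and -0.26, so the counts show no genotype difference. Their mean was 7.82 to 8.09 in control normoxia and 7.15 to 7.46 in control hypoxia, and 7.71 to 7.97 and 7.35 to 7.71 in the knockouts. Of 7 alveolar macrophage markers 3 rose in control and 2 in knockout lungs, beside 5.36% and 0.64% of all genes. Their mean went from 6.93 to 7.45 up to 7.55 to 7.76 and from 7.44 to 7.52 up to 7.81 to 7.90. The part of these cells in the members' values was not tested. Nfat5 itself was 8.92 to 9.39 in control normoxia, 8.16 to 8.61 in control hypoxia, 8.59 to 8.80 in knockout normoxia and 8.17 to 8.46 in knockout hypoxia, and its difference between knockout and control did not pass in normoxia (-0.44 ± 0.15, SE; limma adjusted p = 0.62) or in hypoxia (-0.08 ± 0.15; adjusted p = 0.97). The lung also holds Nfat5 RNA of cells outside the endothelium. The clock output gene Dbp was 8.01 to 9.98 in the normoxic arrays and 10.8 to 11.1 in the hypoxic ones, and the clock activator Arntl 6.17 to 8.11 and 4.71 to 5.28, so by these 2 genes oxygen state and clock phase cannot be told apart for any member. The mean of 3 Y-linked genes was 6.12 to 6.69 in 4 of 6 normoxic arrays (control and knockout 2 and 4) and 5.34 to 5.36 in 2 of 6 hypoxic ones (control 4 and knockout 2), against 2.98 to 3.26 in the other 6, so the sexes were spread unevenly over the oxygen states. Because whole tissue was measured, fewer cells of a type and less RNA per cell cannot be told apart either.

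Knockout normoxia 2 and control hypoxia 1 stood apart in these metabolic genes and in markers of brown and white fat. Knockout normoxia 2 had Ucp1 at 9.31 and control hypoxia 1 at 7.66, while the other 10 arrays held 3.34 to 4.28. The mean of the 10 brown fat markers was 5.99 and 5.26 in those arrays and 4.04 to 4.39 in the other 10. The white fat mean (7 genes) moved with them, at 6.93 and 6.64 against 4.97 to 5.59 elsewhere, and for every white fat marker 1 of these 2 arrays was the highest. Knockout normoxia 2 was the highest of all arrays for 6 of the 10 brown fat markers. It was also the highest for 10 of 12 heart markers, with Nppa at 11.94 and a list mean of 8.28, whereas the heart mean of control hypoxia 1 was 6.56.

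The members followed these arrays. Knockout normoxia 2 was the highest of the 12 arrays for 26 of the 32 members, while it was the highest for 7.71% of all genes. Against the mean of knockout normoxia 1 and 4 it was higher for 30 of 32 members, with a median difference of 0.44 on the log2 scale. The same median over all genes was -0.01. The largest of these differences was that of Hadhb (1.31), the beta subunit of the mitochondrial trifunctional protein. Next came Sucla2 (0.94), a subunit of succinyl-CoA ligase, Acadm (0.91), the medium-chain acyl-CoA dehydrogenase, and Etfa (0.87), the alpha subunit of the electron transfer flavoprotein. Cpt1a went the other way, at -0.42. It encodes the liver-type carnitine palmitoyltransferase that gates the entry of fatty acids.

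Control hypoxia 1 was above the mean of control hypoxia 2 and 4 for 24 of 32 members, with a median of 0.17 and a range from -0.22 (Acads) to 0.72 (Etfa). For all genes this share was 48% and the median was -0.01. Both arrays together were the 2 highest of the 12 for 13 of 32 members, and for 1.65% of all genes. The next heart means were those of knockout normoxia 4 (7.33) and control normoxia 2 (7.17). The part of brown fat, white fat or heart RNA in the members' values was not tested beyond the refits given below.

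**Figure D1:**
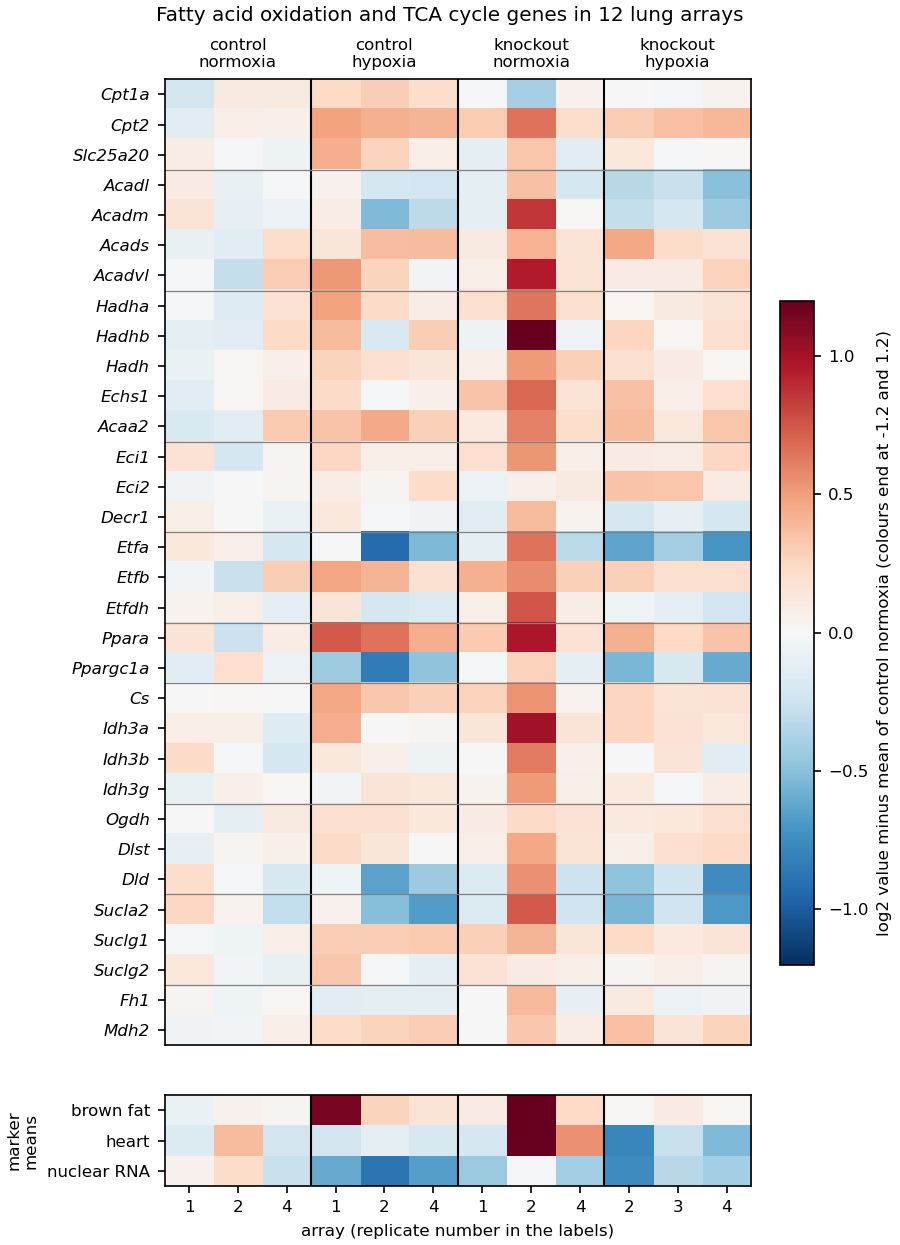
Log2 level of each of the 32 members in each of the 12 arrays minus the mean of control normoxia (colour, with the largest values sharing the end colours), ordered by role, with the means of 3 marker lists below on the same scale. The column of knockout normoxia 2 is the highest for 26 members and is also the darkest for brown fat and heart.

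**Figure D2:**
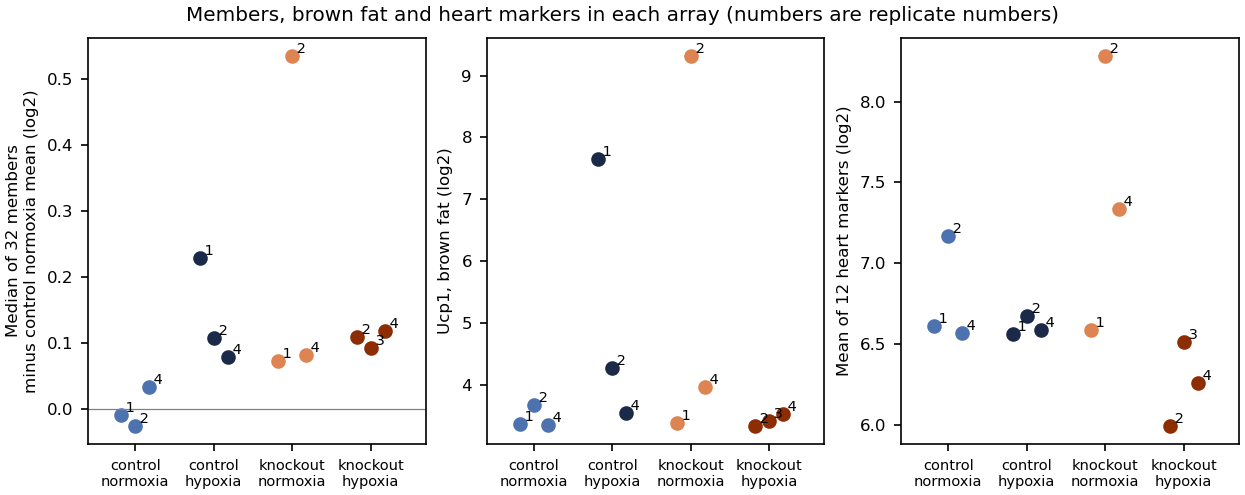
Each point is 1 array, labelled by replicate number: the median over 32 members of the log2 difference from the control normoxia mean (left), Ucp1 (middle) and the mean of 12 heart markers (right). Knockout normoxia 2 has a member median of 0.53 and control hypoxia 1 of 0.23, and the other 10 arrays lie between -0.02 and 0.12.

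Control hypoxia against control normoxia asked how the module responds to low oxygen where Nfat5 is intact. Carnitine palmitoyltransferase 2 (Cpt2), which returns fatty acids from carnitine to CoA inside the mitochondrion, and Suclg1, the alpha subunit of succinyl-CoA ligase, rose. The coactivator Ppargc1a fell. These were 3 of 32 members, beside 11.5% of all genes called (5.36% higher and 6.14% lower), a share near the background and no result about the module. The median over the members was 0.14, with 24 above and 8 below 0, against a median of 0.01 over all genes, of which 52.3% were above 0. Without both Ucp1-high arrays it was 0.09, with 21 above and 11 below 0. With the brown fat mean as a covariate it was 0.02, with 18 above and 14 below 0. The median over all genes was 0.02 in both of these fits. With the heart mean as a covariate the member median was 0.17, and with the mean of 8 nuclear RNAs, described below, 0.30.

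Cpt2 was 6.93, 7.14 and 7.13 in the control normoxia arrays and 7.55, 7.49 and 7.47 in control hypoxia. All hypoxic arrays lay above all normoxic ones. The difference was 0.44 ± 0.11 on the log2 scale (SE), 1.36-fold, with a limma adjusted p of 0.028. Suclg1 was 7.33, 7.30 and 7.42 in normoxia and 7.65, 7.64 and 7.67 in hypoxia, again without overlap. It differed by 0.30 ± 0.08, 1.23-fold (limma adjusted p = 0.037). Ppargc1a was 5.21, 5.55 and 5.28 in normoxia and 4.92, 4.50 and 4.86 in hypoxia. Its hypoxic arrays lay below every normoxic one, and it fell by 0.58 ± 0.15, 1.50-fold (limma adjusted p = 0.033). No 1 of these calls held in every fit with 1 array left out. Cpt2 lost its call without any 1 of the control arrays except control normoxia 4 (adjusted p up to 0.10), Ppargc1a without control normoxia 1 or 2 or control hypoxia 2 or 4 (up to 0.13), and Suclg1 without any control array except control normoxia 4 and also without knockout normoxia 1 or knockout hypoxia 4 (up to 0.12). With the Y-linked mean as a covariate Cpt2 kept its call (0.48, adjusted p = 0.036), and Suclg1 (0.32, adjusted p = 0.059) and Ppargc1a (-0.53, adjusted p = 0.077) lost theirs. Without both Ucp1-high arrays Cpt2 (0.42, limma adjusted p = 0.024) and Ppargc1a (-0.66, adjusted p = 0.029) kept their calls and Suclg1 lost its call. Etfa (-0.73, adjusted p = 0.019) and Ppara (0.54, adjusted p = 0.034) then passed, beside 2834 of all genes. With the brown fat mean Cpt2 and Ppargc1a kept their calls and Suclg1 lost its call. Acadm, Etfa, Dld and Sucla2 were then called lower, beside 3491 of all genes.

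**Figure D3:**
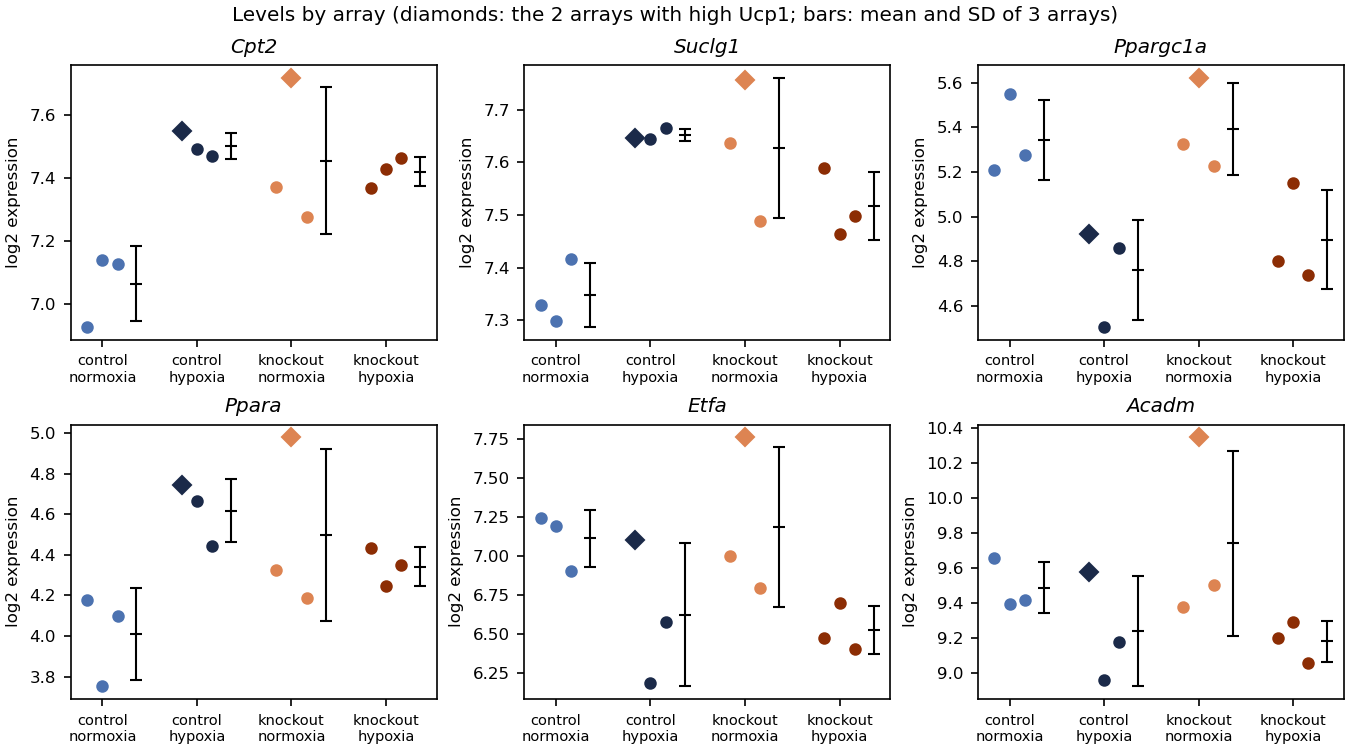
Log2 expression of 6 members in each array, with the mean and SD of each group of 3 as bars, and diamonds for knockout normoxia 2 and control hypoxia 1. Cpt2, Suclg1 and Ppargc1a separate control hypoxia from control normoxia, and in all 6 genes the highest value is that of knockout normoxia 2.

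By role, all 3 carnitine shuttle genes, all 5 hydratase, dehydrogenase and thiolase genes and all 3 auxiliary enzymes of unsaturated fatty acids had values above 0. So did all 4 of citrate synthase and the isocitrate dehydrogenases, and of all these genes Cpt2 alone passed. Above 0 were also 2 of 4 acyl-CoA dehydrogenases, 1 of 3 flavoproteins and 1 of 2 regulators. The same held for 2 of 3 oxoglutarate dehydrogenase genes, 2 of 3 succinyl-CoA ligase genes and 1 of 2 of fumarase and malate dehydrogenase. Of all genes 52.3% were above 0. Citrate synthase (Cs), which joins acetyl-CoA to oxaloacetate, was 9.47, 9.48 and 9.46 in normoxia and 9.94, 9.79 and 9.75 in hypoxia. The groups did not overlap, and the difference of 0.36 ± 0.11 missed the threshold (limma adjusted p = 0.059). Ppara had the highest difference of the members, 0.61 ± 0.19 (limma adjusted p = 0.055), from 4.17, 3.75 and 4.10 in normoxia to 4.75, 4.66 and 4.44 in hypoxia. Its mean over all arrays, 4.37, was below the median level of all genes (4.54), a limit on its values in every contrast. The lowest difference among members that did not pass was that of Etfa, -0.49 ± 0.25 (adjusted p = 0.24). Its partner Etfb, the beta subunit of the same heterodimer, stood at 0.35 ± 0.13 (adjusted p = 0.11), so the point values of the subunits had opposite signs. In succinyl-CoA ligase Suclg1 rose and the ATP-specific beta subunit Sucla2 was at -0.38 (adjusted p = 0.40). The other beta subunit, Suclg2, was at 0.06, with the same sign as Suclg1. In 10 members the 3 arrays of each group did not overlap, 8 higher and 2 lower in hypoxia, beside 27.7% of all genes (14% higher and 13.7% lower).

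In knockout lungs hypoxia gave no member that passed limma's test, beside 1.14% of all genes called (0.64% higher and 0.502% lower), and 9 members had an unadjusted p under 0.05, as did 12.6% of all genes. The median was -0.17, with 5 members above and 27 below 0, while the median of all genes was 0.00. Ppargc1a came closest. It was 5.32, 5.62 and 5.23 in knockout normoxia and 4.80, 5.15 and 4.74 in knockout hypoxia, with no overlap and a difference of -0.49 ± 0.15 (adjusted p = 0.18). Acadl, the long-chain acyl-CoA dehydrogenase, was 9.52, 9.99 and 9.45 in normoxia and 9.31, 9.38 and 9.15 in hypoxia. All hypoxic values were the lower ones, at -0.37 ± 0.14 (adjusted p = 0.27). Etfdh, which passes electrons from the flavoprotein to ubiquinone, was 8.19, 8.87 and 8.20 in normoxia and 8.06, 7.998 and 7.88 in hypoxia, with a difference of -0.44 ± 0.17 (adjusted p = 0.28).

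The lowest member in knockout lungs was Etfa, at -0.66 ± 0.25, and the highest Eci2, an enoyl-CoA isomerase for unsaturated fatty acids, at 0.22 ± 0.09. Non-overlapping groups were found for 8 members, all lower in hypoxia, against 19.8% of all genes (10.9% higher and 8.97% lower). Without knockout normoxia 2 the median over the members was -0.01, with 16 above and 16 below 0. Acadl, Acadm, Etfa, Etfdh, Ppargc1a, Dld and Sucla2 were among the members below 0 both with and without that array. Without it Ppargc1a was the lowest, at -0.38, and Etfa was at -0.37 ± 0.22 (adjusted p = 0.77).

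**Figure D4:**
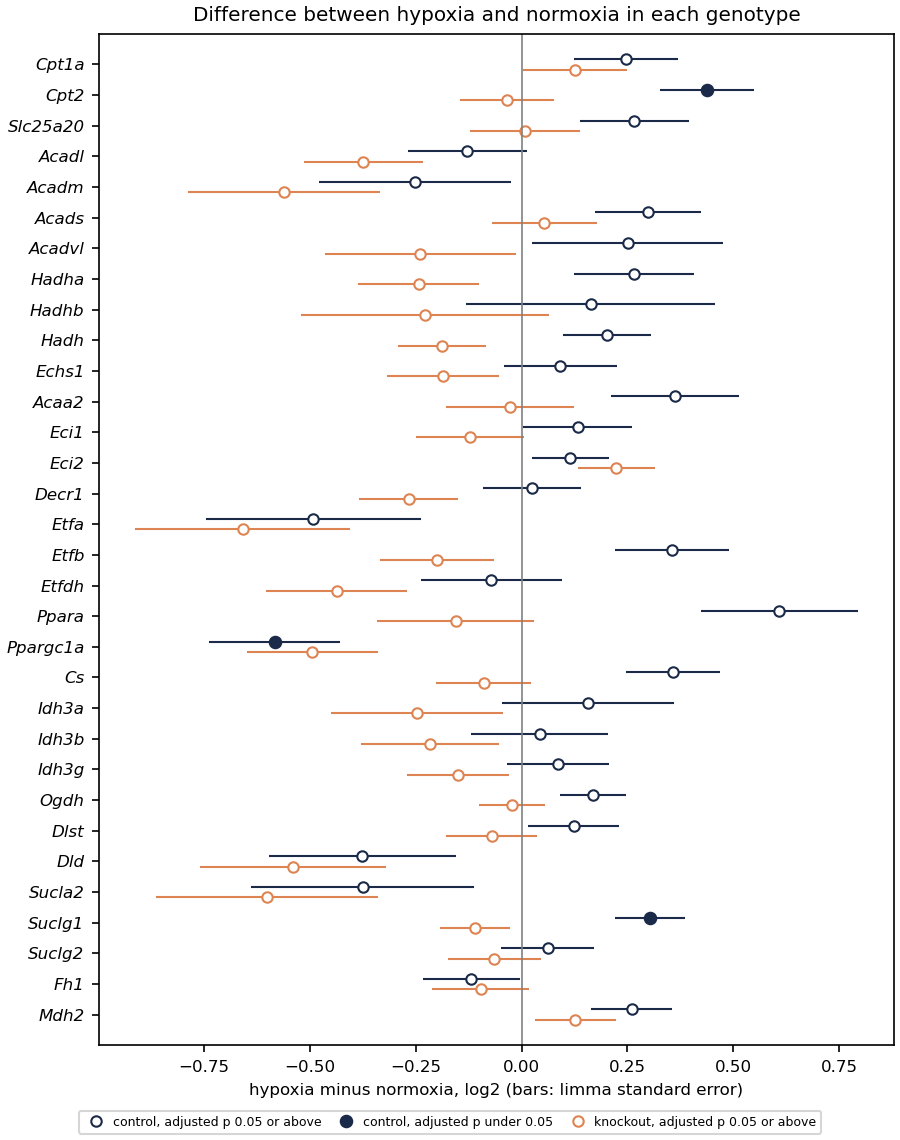
Log2 difference between hypoxia and normoxia for each member in control (dark) and knockout lungs (orange), with limma's standard error, and filled points for an adjusted p under 0.05. Cpt2, Suclg1 and Ppargc1a are filled in control lungs, no member is filled in knockout lungs, and Ppargc1a lies near -0.5 in both.

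Averaged over both genotypes, Ppargc1a fell with hypoxia by 0.54 ± 0.11, 1.45-fold (limma adjusted p = 0.0086), as the only called member beside 14.7% of all genes (7.27% higher and 7.4% lower). The next members were Etfa (-0.58 ± 0.18, adjusted p = 0.052), Dld, the dihydrolipoamide dehydrogenase shared by the pyruvate and oxoglutarate complexes (-0.46 ± 0.16, adjusted p = 0.072), and Mdh2, the mitochondrial malate dehydrogenase (0.19 ± 0.07, adjusted p = 0.078). The median of the members was 0.01. When knockout normoxia 2 and control hypoxia 1 were both left out, 7 members passed. Ppargc1a fell by 0.52, Etfa by 0.55, Sucla2 by 0.44, Dld by 0.41 and Acadm by 0.34, while Cpt2 rose by 0.26 and Mdh2 by 0.25 (limma adjusted p from 0.015 to 0.048). These 5 lower and 2 higher members stood beside 10.5% of all genes called in that fit, and the other 25 members did not pass.

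A list of 8 nuclear noncoding RNAs, which includes Neat1 and Malat1, was lower with hypoxia in control lungs, as Ppargc1a was, and less clearly in knockouts. In control lungs 7 of the 8 were below 0, with a median of -0.69, and in knockout lungs 6, with a median of -0.11. The mean level of the list was 6.40 to 6.88 in control normoxia and 5.79 to 6.06 in control hypoxia. In knockouts it was 6.22 to 6.65 in normoxia and 5.90 to 6.33 in hypoxia, with overlap. With that mean as a covariate the averaged difference of Ppargc1a was -0.21 (adjusted p = 0.70), and the control difference was -0.08 (adjusted p = 0.97). The fit then called 2 of all 24704 genes in control lungs. With the heart marker mean as a covariate the averaged difference was -0.37 (adjusted p = 0.18), and with the brown fat mean it was -0.52 (adjusted p = 0.0062). Averaged over genotypes, the main fit called 3622 of all genes. The heart fit called 404, the brown fat fit 3641 and the nuclear RNA fit 87. By these counts a call lost in the heart or nuclear RNA fit is not particular to Ppargc1a. Of the 12 heart markers 11 were themselves below 0 in this contrast and 2 were called lower, beside 7.4% of all genes. The part of heart RNA in the difference of Ppargc1a was not tested.

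Knockout against control in normoxia gave no member that passed limma's test. The share of all genes called was 0.00405%, and 9 members had an unadjusted p under 0.05, as did 7.26% of all genes. Of the 32 members, 31 were above 0, with a median of 0.23, against -0.00 over all genes, of which 48.8% were above 0. Cpt2 was 7.37, 7.72 and 7.28 in knockout normoxia, above the control arrays given above, at 0.39 ± 0.11 (adjusted p = 0.56). Suclg1 was 7.64, 7.76 and 7.49, also above every control array, at 0.28 ± 0.08 (adjusted p = 0.59). Etfb was 8.33, 8.46 and 8.19 in knockouts and 7.87, 7.63 and 8.20 in controls, with overlapping values and a difference of 0.43 ± 0.13 (adjusted p = 0.61). Ppara had the highest value, 0.49 ± 0.19, and Cpt1a the lowest, -0.12.

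Knockout normoxia 2 carried much of that shift. Without it the median was 0.10 and 22 of 32 members were above 0. Hadhb went from 0.39 to -0.05, Acadm from 0.25 to -0.05, and Etfa, Dld and Sucla2 were then between -0.20 and -0.22. Cpt2 stayed at 0.26 ± 0.09 (adjusted p = 0.59), Suclg1 at 0.22 ± 0.09 and Etfb at 0.36 ± 0.15. With all arrays, the 3 knockout arrays lay above the 3 control arrays in 10 members, beside 5.46% of all genes higher and 11.7% in either direction. With the brown fat mean as a covariate the median was 0.05, and with the heart mean 0.10. With the nuclear RNA mean it was 0.33, with 31 of 32 members above 0.

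**Figure D5:**
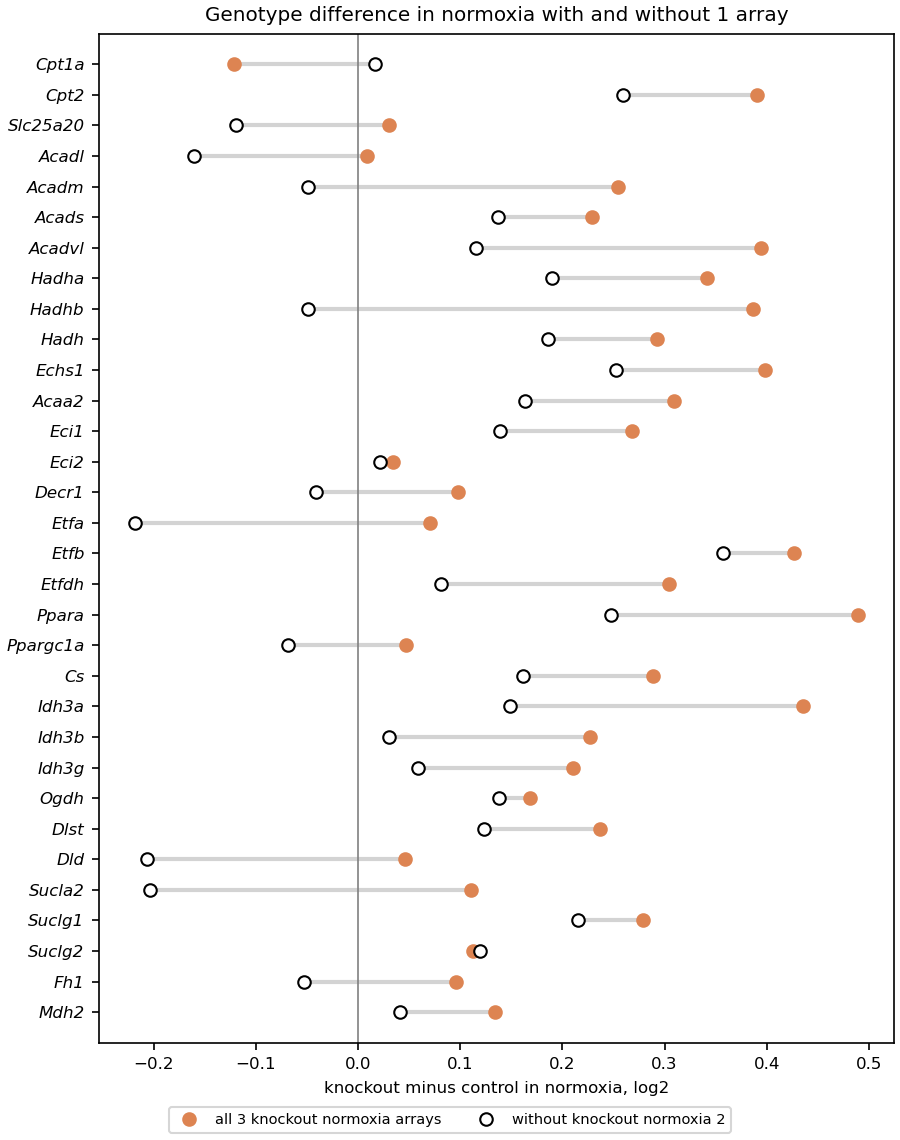
Knockout minus control in normoxia for each member on the log2 scale, with all 3 knockout arrays (filled) and without knockout normoxia 2 (open), joined by a line. The filled points lie above 0 for 31 of 32 members and the open points for 22.

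Knockout against control in hypoxia gave no member that passed limma's test, beside 0% of all genes called, and 0 members had an unadjusted p under 0.05 (5.1% of all genes did). The median was -0.07, with 8 members above and 24 below 0. Cpt1a was 9.36, 9.42 and 9.34 in control hypoxia and 9.12, 9.10 and 9.16 in knockout hypoxia, without overlap, at -0.24 ± 0.12 (adjusted p = 0.95). Slc25a20, the carnitine-acylcarnitine translocase of the inner membrane, was 8.04, 7.88 and 7.68 in controls and 7.72, 7.57 and 7.61 in knockouts, with overlap, at -0.23 ± 0.13. Acadl was 9.70, 9.43 and 9.42 in controls and lower in each knockout array, at -0.24 ± 0.14. Ppara was the lowest at -0.28 and Eci2 the highest at 0.14. Non-overlapping groups were found for 8 members, 1 higher and 7 lower, beside 9.74% of all genes (4.55% higher and 5.19% lower). Without control hypoxia 1 the median was -0.00, with 16 members above and 16 below 0.

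Averaged over both oxygen states, no member passed limma's test between genotypes (0% of all genes called, 1 member and 4.26% of all genes with an unadjusted p under 0.05). That member was Echs1, the short-chain enoyl-CoA hydratase. Echs1 was 7.79, 7.94 and 8.02 in control normoxia, 8.26, 8.61 and 8.09 in knockout normoxia, 8.15, 7.90 and 7.98 in control hypoxia and 8.27, 8.002 and 8.12 in knockout hypoxia. It was higher in knockouts by 0.26 ± 0.09 (adjusted p = 1.00). Cpt1a was at -0.18 ± 0.09 and Cpt2 at 0.15 ± 0.08.

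The interaction, the hypoxia difference in knockout minus that in control lungs, asks whether the genotypes responded differently. No member passed limma's test, beside 0.00405% of all genes, and 7 members had an unadjusted p under 0.05, as did 8.25% of all genes. Suclg1 was at -0.41 ± 0.12, Cpt2 at -0.47 ± 0.16 and Ppara at -0.76 ± 0.26 (adjusted p = 0.57 each). In knockout hypoxia Cpt2 was 7.37, 7.43 and 7.46, Suclg1 7.59, 7.46 and 7.50, and Ppara 4.43, 4.24 and 4.35. Cpt2 in the hypoxic knockouts was thus within the spread of the normoxic knockouts. Ppara was 4.33, 4.98 and 4.19 in the normoxic knockouts. The calls of Cpt2 and Suclg1 in control lungs therefore do not show a different response in knockouts. The interaction of Ppargc1a was 0.09 ± 0.22.

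Over the members the interaction had a median of -0.26, with 3 above and 29 below 0. Its range ran from Ppara to Eci2 at 0.11. Leaving out knockout normoxia 2 gave -0.13, and leaving out control hypoxia 1 as well gave -0.06 with 10 above and 22 below 0. With the brown fat mean as a covariate the median was 0.01 with 16 members on each side, and with the heart mean it was -0.06. With the nuclear RNA mean it was -0.43.

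The levels of the members differed widely in this tissue. Their mean log2 intensity over the 12 arrays ran from 4.37 for Ppara to 10.41 for Ogdh, the first subunit of the oxoglutarate dehydrogenase complex, and array values of different genes also reflect their probes, so no order between genes is drawn from them. The spread within a group was smallest for Fh1, the fumarase, in control hypoxia (SD 0.0064, n = 3) and largest for Hadhb in knockout normoxia (SD 0.75, n = 3).

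Genes around the module were read from lists of related genes, whose counts in the control comparison stand beside 11.5% of all genes (5.36% for those that rose, 6.14% for those that fell) and say nothing particular to a list. In control lungs 0 of 8 other TCA cycle enzymes were called with hypoxia. Among them Sdha, the flavoprotein subunit of succinate dehydrogenase, differed by 0.03 ± 0.11. Of 12 genes of pyruvate entry 1 rose, Pdk2, an inhibitory kinase of pyruvate dehydrogenase, by 0.40. Pdk4, a kinase of the same family induced by fasting and PPARs, differed by 0.06 ± 0.49, and its highest values were those of the Ucp1-high arrays (8.55 in knockout normoxia 2, 7.62 in control hypoxia 1, 6.03 to 7.23 elsewhere). Of 14 PPAR targets 1 rose, the lipid droplet coat protein Plin2, by 0.46, and Angptl4, an inhibitor of lipoprotein lipase, differed by 0.07 ± 0.27.

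Of 16 genes of fatty acid uptake and activation, 2 rose and 1 fell with hypoxia in control lungs. Cd36, the fatty acid translocase, was 12.00, 11.93 and 11.76 in control normoxia and 11.34, 11.15 and 11.18 in control hypoxia. In the knockouts it was 11.67, 11.80 and 11.63 in normoxia and 11.05, 11.15 and 11.02 in hypoxia. Hypoxic arrays lay below normoxic ones in both genotypes, and Cd36 fell by 0.68 ± 0.09 in control (limma adjusted p = 0.0041) and by 0.63 ± 0.09 in knockout lungs (adjusted p = 0.0085). It was the only gene of these 7 lists called in knockout lungs. Both calls held with each array left out in turn (adjusted p up to 0.022 and 0.049). Of 23 alternatives the control call was lost in 1 and the knockout call in 3. The fit without both Ucp1-high arrays was among those 3 (-0.58, adjusted p = 0.058). Cd36 is abundant in lung capillary endothelium. Of the 9 capillary markers 4 passed, beside 6.14% of all genes lower in control and 0.502% in knockout lungs. Kdr (by 0.39 and 0.60), Tek (by 0.48 and 0.51), Plvap (by 1.16 and 1.35) and Ednrb (by 0.88 and 0.77) fell in control and knockout lungs (limma adjusted p from 0.0042 to 0.018). The other 5 did not pass. The median of the 9 was -0.28 in control and -0.51 in knockout lungs. Their mean level was 10.2 to 10.3 in control normoxia, 9.84 to 10.0 in control hypoxia, 10.2 to 10.4 in knockout normoxia and 9.66 to 9.86 in knockout hypoxia, and its part in the result for Cd36 was not tested. The transport proteins Slc27a1 and Slc27a3 rose in control lungs by 0.71 and 0.80.

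Of 17 further genes of mitochondrial beta-oxidation, Acad11 (0.68) and the neuronal-type Cpt1c (0.39) rose and Pcca, a subunit of propionyl-CoA carboxylase, fell by 0.38. Of 14 peroxisomal genes, Acaa1b (0.54), a peroxisomal thiolase, Decr2 (0.43) and the sterol carrier protein Scp2 (0.41) rose, while the carnitine octanoyltransferase Crot fell by 0.37. Of the 12 fits with 1 array left out, Scp2 lost its call in 11, Pcca in 9, Crot in 8 and Decr2 in 7, and Slc27a1 and Plin2 in 5 each (adjusted p up to 0.15). Of 16 nuclear regulators, Ppard, the PPAR of many tissues outside liver, rose by 0.57 ± 0.12 (limma adjusted p = 0.017), and Esrra, the partner of PGC-1alpha, rose by 0.47 ± 0.13 (adjusted p = 0.034). The deacetylase Sirt1, which acts on PGC-1alpha, fell by 0.40. In knockout lungs Ppard was at -0.09 ± 0.12 and Esrra at 0.08 ± 0.13, and their interactions, -0.65 ± 0.18 and -0.39 ± 0.18, did not pass (adjusted p = 0.57 and 0.61). Ppard lost its call without control normoxia 1 or control hypoxia 2 (adjusted p up to 0.069), and Esrra without control normoxia 2 or 4 or control hypoxia 2 or 4 (up to 0.10). Ppard, Esrra and Ppargc1a thus differed in direction with hypoxia in control lungs.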

How the data were processed

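Whole-lung RNA of 12 mice, 3 per group, was measured on Affymetrix arrays, and replicates are taken as separate mice. The deposited values are log2 expression levels made by the authors with RMA, per the submitters' processing notes; the sources used here give no version and no probe set build. The arrays share 1 distribution (difference of 0 at every rank), so depth does not apply and the number of arrays limits precision. Of 25428 probe sets, 24705 had 1 gene symbol and 723 none, which gave 24704 genes. The fit, in limma 3.58.1 (R 4.3.3), had 1 mean per group (8 residual and 3.61 prior degrees of freedom) and 7 two-sided contrasts. A gene was called at a Benjamini-Hochberg adjusted p under 0.05 over all genes. Errors with differences are limma's standard errors. The script was tested on simulated data.

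The members, the related lists and the marker lists were chosen with earlier results of these data known. Values per array were given for members called in any contrast and, in a contrast without one, for the 3 with the smallest unadjusted p, with the lowest and highest difference of the others; a few further members are named after their values were seen. The labels do not say whether replicate numbers mark a shared litter, batch or day. Correlations computed to look for this ran from -0.25 to 0.28 between same-numbered arrays (median 0.02), over 0.1 in 4 of 15 pairs. Between arrays with different numbers they ran from -0.32 to 0.34 (median -0.03), over 0.1 in 13 of 39 pairs. They are not correlations of the levels themselves, which were 0.989 to 0.994 within a group. With 3 arrays per group they cannot exclude pairing. Alternatives were a replicate block, a fit of 2 groups, a filter at the median level, trended and robust variances, array weights, another centring, marker means as covariates (the Y-linked mean was added after seeing the data), and leaving out arrays.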

Additional observations from a re-analysis of the deposited data

How the results depend on the processing

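In control lungs 3 members were called with hypoxia. A replicate block left 0, and Cpt2 then had an adjusted p of 0.057, Ppargc1a 0.053 and Suclg1 0.077 (limma). A fit of only those 2 groups also left 0, as did the nuclear RNA mean as a covariate, and the brown fat mean as a covariate gave 6 (1 higher and 5 lower). The count over all 24704 genes moved too, from 2839 in the main fit. It was 2058 with the block, 1100 with 2 groups, 2 with nuclear RNA and 3491 with brown fat. Leaving out 1 array gave 0 to 5. Averaged over genotypes 1 member was called. The filter at the median level gave 3, trended robust variances 2, array weights 3, the brown fat covariate 8, leaving out both Ucp1-high arrays 7, and the heart and nuclear RNA covariates 0 each. Over all genes the main fit called 3622 and the filter 3729 of 12352. The other fits called, in the same order, 3592, 3899, 3641, 2597, 404 and 87 of 24704. Leaving out 1 array gave 1 to 4. The replicate block kept Ppargc1a in that contrast (-0.61, adjusted p = 0.018). The mean of the Y-linked genes as a covariate, added after seeing the data, gave 1 in control lungs and 2 averaged over genotypes. That fit called 1794 and 2180 of all genes. The cause of these differences was not tested. The knockout hypoxia contrast, the 3 genotype contrasts and the interaction had 0 members called in every alternative. No called member or related gene reversed its direction under any alternative run. For the called related genes the same alternatives were run after seeing the data. In control lungs Cd36 and Acaa1b kept their calls with each array left out, and each of the other 13 called related genes lost its call in at least 2 of 12 such fits. Another centring moved no count of called members: arrays differed by at most 0.01 in the mean of genes above the median level. With 3 arrays per group, differences of about 0.3 on the log2 scale passed only for members with little spread.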
